A study of Mus musculus with 6 samples.

Results

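Interferons are secreted in answer to infection or to nucleic acid in the wrong place, and they act through cell surface receptors, Janus kinases and STAT and IRF transcription factors. The genes these factors switch on fall into antiviral effectors, such as the IFIT and IFITM proteins, and into genes that cut peptides and show them to T cells on class I molecules. Interferon gamma also raises class II molecules, which in most tissues are carried by macrophages, dendritic cells and B cells. In the heart, cardiomyocytes, endothelial cells and resident macrophages all carry interferon receptors.

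The 42 genes described here were 27 interferon-stimulated genes, 10 genes of class I presentation, 4 genes of class II presentation and the checkpoint ligand gene *Cd274*. They were taken by symbol from the probe annotation, and a probe was kept where its detection p-value, the rank of its intensity among negative controls, lay below 0.01 on at least 2 of 6 arrays. Of the 42 genes, 41 had an annotated probe and 37 had a kept probe, among 9577 genes measured in all. *Ifi44* had no annotated probe, and the probes of *Ifit1*, *Ifih1*, *Iigp1* and *Xaf1* did not pass. The genes had 82 probes, of which 62 were kept, and each gene was represented by its probe with the highest mean. The rule used no difference between groups.

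Illumina bead arrays were run on the left ventricle of male C57BL/6 mice, 1 mouse per array, as 1 wild-type (WT) Sham, 2 WT TAC, 1 *Kdm3a*-Tg (Tg) Sham and 2 Tg TAC. Transverse aortic constriction (TAC) narrows the aortic arch and loads the ventricle with pressure, and sham mice had surgery without it. Mice were 6 to 8 weeks old at surgery, and hearts were taken 3 weeks later by the labels, though the text of the study gives a longer time for its Tg mice. Tg mice carried a Flag-tagged cDNA of *Kdm3a*, a histone H3 lysine 9 demethylase, behind the alpha-myosin heavy chain promoter, which is active in cardiomyocytes. The study made more than 1 transgenic line and states that its primary data came from 1 of them. The array labels do not name the line. Replicate 1 of the TAC groups carried animal numbers 445 and 446, close to the sham numbers 444 and 454, and replicate 2 carried 17 and 18.

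*Kdm3a* was read first as a check of the labels. Its probe ILMN_3118169 had an intensity of 34642 and 33540 in the Tg TAC replicates, with 341 in WT Sham and 229 in replicate 2 of WT TAC. The array labelled WT TAC replicate 1 had 30614, however, and the array labelled Tg Sham had 247. Both therefore go against their genotype label on this probe. Medians of the interferon-stimulated, class I and class II genes are given with and without them below where arrays remain for the comparison, which is not so for Tg Sham against WT Sham, Tg TAC against Tg Sham and the interaction, and the standard errors and calls of single genes are with all arrays unless stated. ILMN_3043245 and ILMN_2707895, detected on all 6 arrays, showed no such step (238 to 301 and 392 to 755), and their position against the transgene cDNA was not known here. Between 15643 and 16492 probes were detected per array. Of 9 cardiomyocyte markers 8 were measured, *Myh6* between 14.63 and 15.11 in log2 units, so the tissue label was met. Values below are normalized log2 intensities, which order arrays for 1 gene and do not order genes. In whole ventricle, fewer cells of a type and less RNA per cell cannot be told apart.

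The factors named above bind short DNA motifs, and promoters of the interferon-stimulated genes carried them more often than promoters at large. The core of the interferon-stimulated response element (ISRE), bound by IRF factors, was searched as GAAA, any 2 bases and GAAA again, and the gamma-activated site (GAS), bound by STAT dimers, as TTCNNNGAA, on both strands. RefSeq windows (GRCm38.p6) reached from 250 bases before the start site to 50 bases after it, and 34 of the 42 genes had a window. The ISRE core stood in 14 of 26 windows of interferon-stimulated genes (53.8%), in 2 of 10 class I windows (20%), in 0 of 2 class II windows and not in that of *Cd274*, against 3.44% of all 32851 windows. The GAS stood in 5 of 26 (19.2%), 1 of 10 (10%), 0 of 2 and 0 of 1, against 8.3% of all. Both motifs overlapped each other in *Bst2* and *Ifitm3*. A match describes the letters only.

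The 250 bases before the start site are shown for 5 genes whose levels are described below, 5′ to 3′ on the strand of the gene, with ISRE cores and GAS in capitals. *Isg15* was chosen for its run of 3 overlapping cores, *Ifit3* for 2 separate ones, *Gbp3* and *Igtp* as GTPase genes whose TAC difference had opposite signs under the genotype labels, and *B2m* as a class I gene with a core.
Isg15 (chr4:156200819-156201068, - strand): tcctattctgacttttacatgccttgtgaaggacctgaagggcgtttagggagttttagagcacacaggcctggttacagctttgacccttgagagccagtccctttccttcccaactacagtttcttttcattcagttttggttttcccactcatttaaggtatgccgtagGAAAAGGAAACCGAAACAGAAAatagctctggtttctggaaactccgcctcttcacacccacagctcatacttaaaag
Ifit3 (chr19:34583279-34583528, + strand): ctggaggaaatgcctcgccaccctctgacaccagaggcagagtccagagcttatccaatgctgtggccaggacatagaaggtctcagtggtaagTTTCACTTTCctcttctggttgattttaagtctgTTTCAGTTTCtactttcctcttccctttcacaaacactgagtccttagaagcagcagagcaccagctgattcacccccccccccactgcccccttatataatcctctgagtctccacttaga
Gbp3 (chr3:142559794-142560043, + strand): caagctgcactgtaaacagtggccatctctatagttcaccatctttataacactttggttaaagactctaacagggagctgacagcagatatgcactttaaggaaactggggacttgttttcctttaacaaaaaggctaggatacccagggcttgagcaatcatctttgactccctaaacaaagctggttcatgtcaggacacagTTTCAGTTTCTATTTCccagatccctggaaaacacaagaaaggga
Igtp (chr11:58199306-58199555, + strand): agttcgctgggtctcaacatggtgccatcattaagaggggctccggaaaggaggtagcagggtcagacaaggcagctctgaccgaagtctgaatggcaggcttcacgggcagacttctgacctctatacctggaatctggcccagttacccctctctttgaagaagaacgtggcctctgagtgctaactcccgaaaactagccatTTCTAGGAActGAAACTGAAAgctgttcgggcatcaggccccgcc
B2m (chr2:122147437-122147686, + strand): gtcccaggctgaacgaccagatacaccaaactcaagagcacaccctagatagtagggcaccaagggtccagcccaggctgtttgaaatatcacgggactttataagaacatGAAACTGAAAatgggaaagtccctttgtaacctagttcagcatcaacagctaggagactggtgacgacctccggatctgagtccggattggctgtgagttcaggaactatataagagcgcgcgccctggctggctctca
In *Isg15* the 3 cores began at -78, -72 and -66, counted so that -1 is the base before the start site. In *Ifit3* they began at -156 and -122 on the opposite strand, and in *Gbp3* at -45 and -39, also on the opposite strand. *Igtp* held a GAS at -45 beside a core at -34, and *B2m* held a core at -139. *Tap1* and *Psmb9* are read in opposite directions from neighbouring starts on chromosome 17, so that their upstream stretches (34187306 to 34187555 and 34187331 to 34187580) overlap, and neither motif was found there.

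The interferon-stimulated genes had their highest level in the array labelled WT TAC replicate 1, in which 12 of 22 measured genes peaked, and their lowest in WT Sham for 10 genes and in Tg TAC replicate 2 for 7. Relative to each gene's mean, the median of the 22 genes was -0.20 in WT Sham, 0.37 and -0.06 in replicates 1 and 2 of WT TAC, -0.04 in Tg Sham, and 0.08 and -0.19 in replicates 1 and 2 of Tg TAC. The 2 replicates of each TAC group thus stood apart from each other. Over all 9577 genes, WT TAC replicate 1 was highest in 15.7%, WT Sham was lowest in 24.2% and Tg TAC replicate 2 was lowest in 19.6%.

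**Figure D1:**
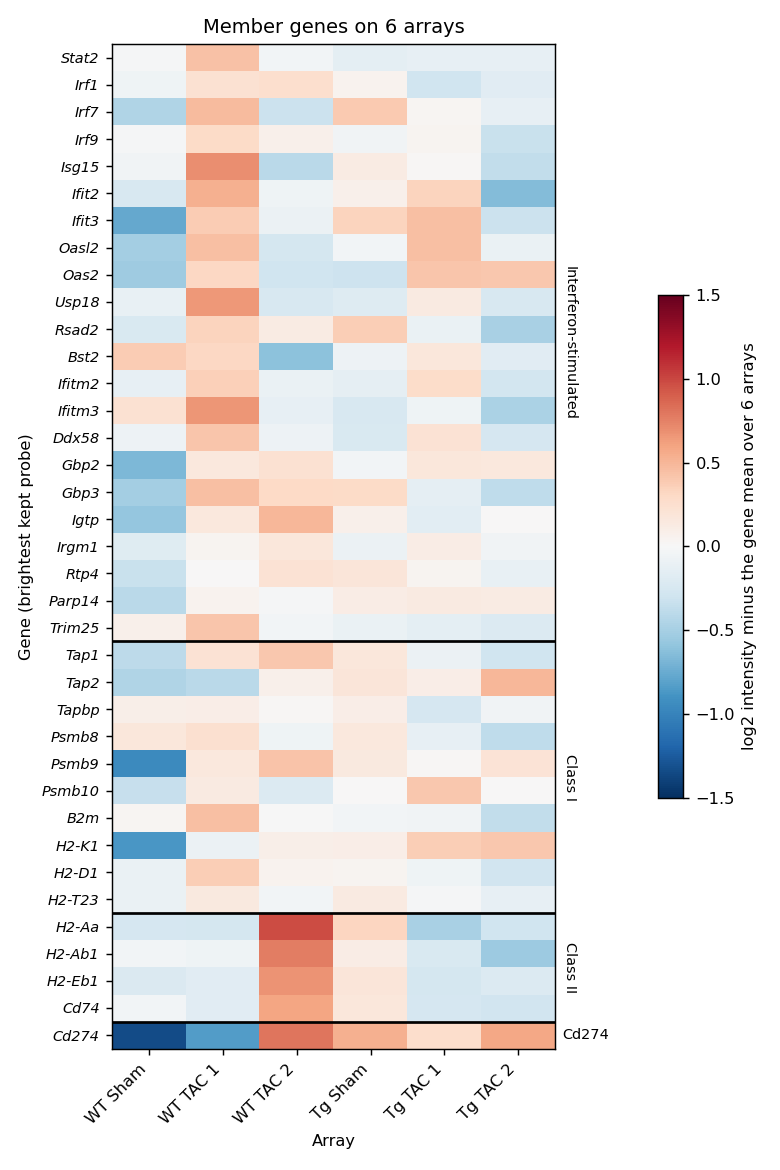
Normalized log2 intensity of the 37 measured genes (rows) on the 6 arrays (columns), minus the mean of each gene over the 6 arrays, with interferon-stimulated, class I, class II and *Cd274* rows separated by lines. Red is above and blue below the mean. The column labelled WT TAC replicate 1 holds the highest value of 12 interferon-stimulated genes, and WT TAC replicate 2 that of all 4 class II genes.

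Among the transcription factors, *Irf7*, which amplifies the type I response, read 5.64 in WT Sham, 6.56 in WT TAC replicate 1, 5.76 in WT TAC replicate 2, 6.48 in Tg Sham, and 6.12 and 5.97 in Tg TAC replicates 1 and 2. Tg Sham thus lay above both Tg TAC arrays, and WT Sham was the lowest array. *Irf1*, *Irf9* and *Stat2* ranged less, over 0.55, 0.62 and 0.58. *Irf1*, a factor induced by interferon gamma, was at 10.50 ± 0.02 (SD, n = 2) in WT TAC and 10.02 ± 0.09 (SD, n = 2) in Tg TAC.

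Among the antiviral effectors, *Ifit3*, a partner of the RNA-binding IFIT complex, read 8.54 in WT Sham, 9.69 and 9.22 in WT TAC replicates 1 and 2, 9.64 in Tg Sham, and 9.76 and 8.98 in Tg TAC replicates 1 and 2. WT Sham lay below every other array. *Ifit2*, of the same family, read 7.75 in WT Sham, 8.53 and 7.93 in WT TAC, 8.07 in Tg Sham, and 8.33 and 7.34 in Tg TAC, in the same replicate order. Here the TAC replicates lay so far apart that Tg TAC held the lowest array of all.

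*Oasl2*, of the oligoadenylate synthetase family that senses double-stranded RNA, read 8.30 in WT Sham, 9.26 and 8.55 in WT TAC, 8.77 in Tg Sham, and 9.26 and 8.71 in Tg TAC. Its relative *Oas2* read 7.15 in WT Sham, 8.0 and 7.39 in WT TAC, 7.38 in Tg Sham, and 8.11 and 8.09 in Tg TAC. For *Oas2* both Tg TAC arrays and the array labelled WT TAC replicate 1 lay close together and above the other 3, and these are the arrays with the high *Kdm3a* probe intensity.

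*Ifitm3*, a membrane protein that blocks virus entry, read 12.75 in WT Sham, 13.18 and 12.40 in WT TAC, 12.28 in Tg Sham, and 12.46 and 12.05 in Tg TAC. *Bst2*, which tethers budding viruses to the cell, read 7.81 in WT Sham, 7.74 and 6.81 in WT TAC, 7.35 in Tg Sham, and 7.59 and 7.26 in Tg TAC. These genes did not share the low WT Sham value of *Ifit3*, and for *Bst2* that array was the highest. *Rsad2* (viperin), *Ifitm2* and the low-level *Rtp4* ranged over 0.86, 0.64 and 0.54. The kept probe of *Rtp4* was detected on 4 arrays, not in WT Sham or Tg TAC replicate 2, so its low values there are near background.

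*Isg15*, a ubiquitin-like modifier, read 7.84 in WT Sham, 8.59 and 7.49 in WT TAC, 8.01 in Tg Sham, and 7.91 and 7.53 in Tg TAC. *Usp18*, the protease that takes ISG15 off its targets, peaked in the same array and ranged over 0.89. For *Isg15* the WT TAC arrays held both the highest and the lowest value. *Parp14* and *Trim25* ranged over 0.54 and 0.63, and the RNA sensor *Ddx58* over 0.66. The 2 kept probes of *Trim25* did not move together (r = -0.38 over 6 arrays), and those of *Irgm1* did so loosely (r = 0.38).

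Of the interferon-inducible GTPases, which attack the vacuoles of intracellular microbes, 4 were measured. *Igtp* read 8.16 in WT Sham, 8.90 and 9.24 in WT TAC, 8.82 in Tg Sham, and 8.59 and 8.75 in Tg TAC. *Gbp3* read 8.53 in WT Sham, 9.50 and 9.34 in WT TAC, 9.33 in Tg Sham, and 8.92 and 8.66 in Tg TAC. Both WT TAC replicates lay above WT Sham in *Igtp* and *Gbp3*, and both Tg TAC replicates lay below Tg Sham. *Gbp2* and *Irgm1* ranged over 0.91 and 0.36 and were also lowest in WT Sham, but their Tg TAC arrays lay above Tg Sham, at 9.84 and 9.82 against 9.62 for *Gbp2* and at 12.26 and 12.09 against 12.06 for *Irgm1*.

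Of the 10 class I genes, 5 were lowest in WT Sham and 4 in Tg TAC replicate 2. The immunoproteasome subunit *Psmb9* had the widest range of them and read 7.37 in WT Sham, 8.49 and 8.76 in WT TAC, 8.48 in Tg Sham, and 8.36 and 8.54 in Tg TAC. WT Sham stood apart from 5 arrays that lay within a narrow band. *Psmb10* and *Psmb8*, the other subunits that replace their constitutive partners, ranged over 0.75 and 0.62. *Tap1* and *Tap2* form the pump that brings peptides into the endoplasmic reticulum. *Tap1* read 5.45 in WT Sham, 6.06 and 6.24 in WT TAC, 6.01 in Tg Sham, and 5.76 and 5.54 in Tg TAC. *Tap2* read 8.23 in WT Sham, 8.28 and 8.76 in WT TAC, 8.87 in Tg Sham, and 8.79 and 9.18 in Tg TAC. The partners therefore differed in their order, with Tg TAC below WT TAC for *Tap1* and above it for *Tap2*.

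*H2-K1*, a classical class I heavy chain, read 7.98 in WT Sham, 8.76 and 8.93 in WT TAC, 8.94 in Tg Sham, and 9.22 and 9.25 in Tg TAC. A fainter probe of *H2-K1* gave 6.25 in WT Sham, 6.58 and 6.20 in WT TAC, 6.75 in Tg Sham, and 5.55 and 5.75 in Tg TAC, with an r of -0.42 to the brighter one. The probes put Tg TAC at opposite ends, and since heavy chain genes are near-identical in long stretches, the level of *H2-K1* is uncertain. Probe correlations were also low for *Tapbp* (lowest r -0.19), *H2-D1* (0.10), *H2-T23* (0.10) and *Psmb8* (0.18). *B2m*, the light chain shared by class I molecules, had probes that moved together (r = 0.98) and read 13.29 in WT Sham, 13.72 and 13.26 in WT TAC, 13.22 in Tg Sham, and 13.21 and 12.89 in Tg TAC. For *B2m* the array labelled WT TAC replicate 1 was alone at the top, as for *Isg15* and *Ifitm3*. *H2-D1*, *Tapbp* and *H2-T23* ranged over 0.66, 0.35 and 0.27.

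All 4 class II genes were highest in WT TAC replicate 2, an array that was highest in 16.1% of all genes. *H2-Aa*, the alpha chain of the A molecule, read 8.76 in WT Sham, 8.75 and 9.99 in WT TAC, 9.34 in Tg Sham, and 8.53 and 8.72 in Tg TAC. *H2-Ab1*, its beta chain, read 10.06 in WT Sham, 10.03 and 10.87 in WT TAC, 10.20 in Tg Sham, and 9.87 and 9.55 in Tg TAC. Tg Sham came next after WT TAC replicate 2 in each, and the Tg TAC arrays were the lowest.

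*H2-Eb1*, the beta chain of the E molecule, read 9.62 in WT Sham, 9.66 and 10.51 in WT TAC, 10.02 in Tg Sham, and 9.57 and 9.63 in Tg TAC. *Cd74*, the invariant chain that guards the class II groove, read 10.53 in WT Sham, 10.40 and 11.16 in WT TAC, 10.74 in Tg Sham, and 10.32 and 10.29 in Tg TAC. Summed over the 4 genes, linear intensity was 6634 in WT TAC replicate 2 and between 3216 and 4575 in the other 5 arrays. The 3 probes of *H2-Ab1* and of *Cd74* moved together (lowest r 0.88 and 0.95).

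Markers of cells that carry class II were looked at on the same arrays. Of 20 macrophage and leukocyte markers 14 were measured, and their summed intensity was 7155 in WT TAC replicate 2, within the range of 6557 to 10881 over the 6 arrays. Only *Zbtb46* of 7 dendritic cell markers, *Cd79b* of 5 B cell markers and 0 of 9 T and NK cell markers were measured, and *Ptprc*, *Itgax*, *Ms4a1* and *Cd3e* did not pass the filter. The class II transactivator *Ciita* did not pass either. In WT TAC replicate 2 *Zbtb46* was at its lowest of the 6 arrays (5.69), and *Cd79b* (5.74) was below Tg TAC replicate 1 (5.95). *Cd79b* lay under the lowest detected value in Tg Sham (5.27 against 5.44) and in Tg TAC replicate 2 (4.89 against 5.41), so it was near background. The part of these cell types in the class II values was not tested.

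*Cd274*, which encodes PD-L1, the ligand that dampens T cells through PD-1, had the widest range of all measured genes of the set (2.15). It read 6.25 in WT Sham, 6.76 and 8.40 in WT TAC, 8.13 in Tg Sham, and 7.87 and 8.18 in Tg TAC. WT Sham and the array labelled WT TAC replicate 1 were low, and the other 4 arrays lay within a band that did not separate sham from TAC or the genotype labels.

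**Figure D2:**
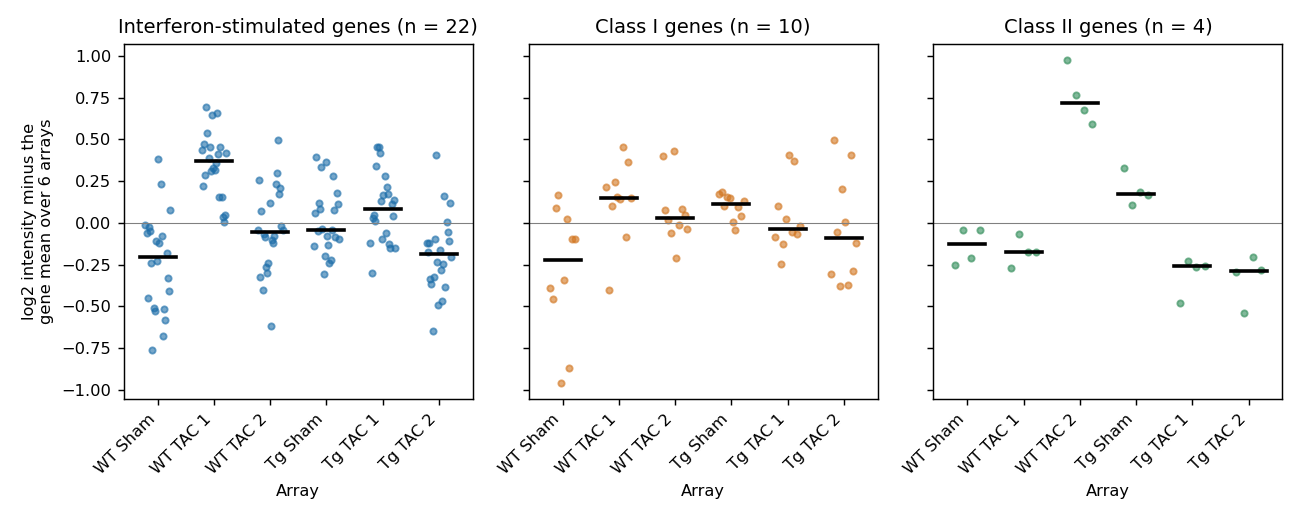
Log2 intensity minus the mean of each gene over the 6 arrays, for 22 interferon-stimulated, 10 class I and 4 class II genes (points), with the list median per array (black bar). The interferon-stimulated median is highest (0.37) in the array labelled WT TAC replicate 1, and the class II median (0.72) in WT TAC replicate 2.

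WT TAC was set against WT Sham for the response to pressure overload. Of the interferon-stimulated genes, 21 of 22 lay above WT Sham, with a median log2 difference of 0.37, as did 8 of 10 class I genes (median 0.30), 4 of 4 class II genes (median 0.43) and *Cd274*. Over all genes 56.6% lay above 0, with a median of 0.04. None of the genes passed an adjusted p of 0.05 in limma, in which 0% of all genes passed, and 5 members and 1.74% of all genes had an unadjusted p below 0.05. Both WT TAC arrays lay above the WT Sham array for 16 interferon-stimulated genes, 7 class I genes, *H2-Eb1* and *Cd274*, and for 35.3% of all genes. Both lay below it for *Bst2* alone, and for 23.8% of all genes. Macrophage and leukocyte markers lay above WT Sham in 11 of 14 cases (median 0.24), 8 of them on both arrays, and in 8 of 14 (median 0.05) without WT TAC replicate 1. Endothelial markers lay above it in 4 of 11 (median -0.01), and the part of either list in the result was not tested.

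The largest of these differences among interferon-stimulated genes were 0.91 ± 0.40 (SE) for *Ifit3*, 0.91 ± 0.25 for *Igtp*, 0.89 ± 0.23 for *Gbp3* and 0.87 ± 0.20 for *Gbp2*, folds of 1.83 to 1.89. In class I they were 1.25 ± 0.24 for *Psmb9* and 0.87 ± 0.21 for *H2-K1*. On the fainter probe of *H2-K1*, WT Sham (6.25) lay between the WT TAC arrays (6.58 and 6.20). *Cd274* differed by 1.33 ± 0.66. All of these adjusted p-values were 1 in limma, and none of the differences is called a change. Without WT TAC replicate 1, whose *Kdm3a* value goes against its label, 16 of 22 interferon-stimulated genes lay above WT Sham with a median of 0.20, and the class I median was 0.14. The class II median was 0.85 without that array and -0.02 without WT TAC replicate 2, so it rests on replicate 2. The difference of *Cd274* was 2.15 without replicate 1, from 1 WT TAC array against 1 WT Sham array. With neither array that goes against its label, *Ifit3* differed by 0.68, *Igtp* by 1.08, *Gbp3* by 0.81, *Gbp2* by 0.91, *Psmb9* by 1.39 and *H2-K1* by 0.95. These values too set 1 array against 1, so no SE is given. The 6 genes were named because both WT TAC arrays lay above WT Sham. Their sign without replicate 1 was therefore fixed beforehand.

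Over both genotypes, with 4 TAC arrays against 2 sham arrays and a term for the genotype label, 19 of 22 interferon-stimulated genes lay above 0 (median 0.15), as did 7 of 10 class I genes (median 0.11) and 1 of 4 class II genes (median -0.05), against 55% of all genes (median 0.03). The 4 TAC arrays all exceeded both sham arrays for *Oas2* (0.63 ± 0.20), *Gbp2* (0.54 ± 0.18) and *Irgm1* (0.20 ± 0.12), 3 of 37 genes, against 6.62% of all genes. Their adjusted p was 0.82 in limma, and 0% of genes passed, with 5.84% at an unadjusted p below 0.05. Without WT Sham, which leaves Tg Sham as the sham array, 10 of 22 interferon-stimulated genes lay above 0 (median -0.05), and the class I median was -0.19 and the class II median -0.46. These are the values of Tg TAC against Tg Sham, because the WT TAC arrays then have no sham array. The 3 medians thus had opposite signs under the genotype labels. This cannot be assigned to the WT Sham array alone. Without both arrays that go against their label, the surgery term comes from WT TAC replicate 2 against WT Sham alone. It then repeats the WT comparison and is no check over both genotypes. The 3 medians were 0.20, 0.14 and 0.85, and the differences were 0.23 for *Oas2*, 0.91 for *Gbp2* and 0.36 for *Irgm1*. For these 3 genes all 4 TAC arrays exceeded both sham arrays, so their signs were fixed beforehand. With all arrays, macrophage and leukocyte markers lay above 0 in 13 of 14 cases (median 0.29). Endothelial markers lay below 0 in 10 of 11 (median -0.14). Without the 2 arrays that go against their label, these were 8 of 14 (median 0.05) and 8 of 11 (median -0.26). Their part in the result was not tested.

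Tg Sham and WT Sham have 1 array each, so their difference has no replicate check and no p-value is given. In Tg Sham 14 of 22 interferon-stimulated genes (median difference 0.20), 8 of 10 class I genes (0.29) and 4 of 4 class II genes (0.30) read higher than in WT Sham, against 54.8% of all genes (0.04). *Cd274* was 3.67-fold higher, *Psmb9* 2.15-fold, *Ifit3* 2.14-fold, *H2-K1* 1.95-fold, *Irf7* 1.80-fold and *Gbp3* and *Igtp* 1.74-fold and 1.58-fold. When arrays were scaled to a common median in place of quantile normalization, the median over all genes moved to -0.20 and that of the interferon-stimulated genes to -0.07, so the sign of the latter depended on the scaling and relative to all genes it stayed above.

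**Figure D3:**
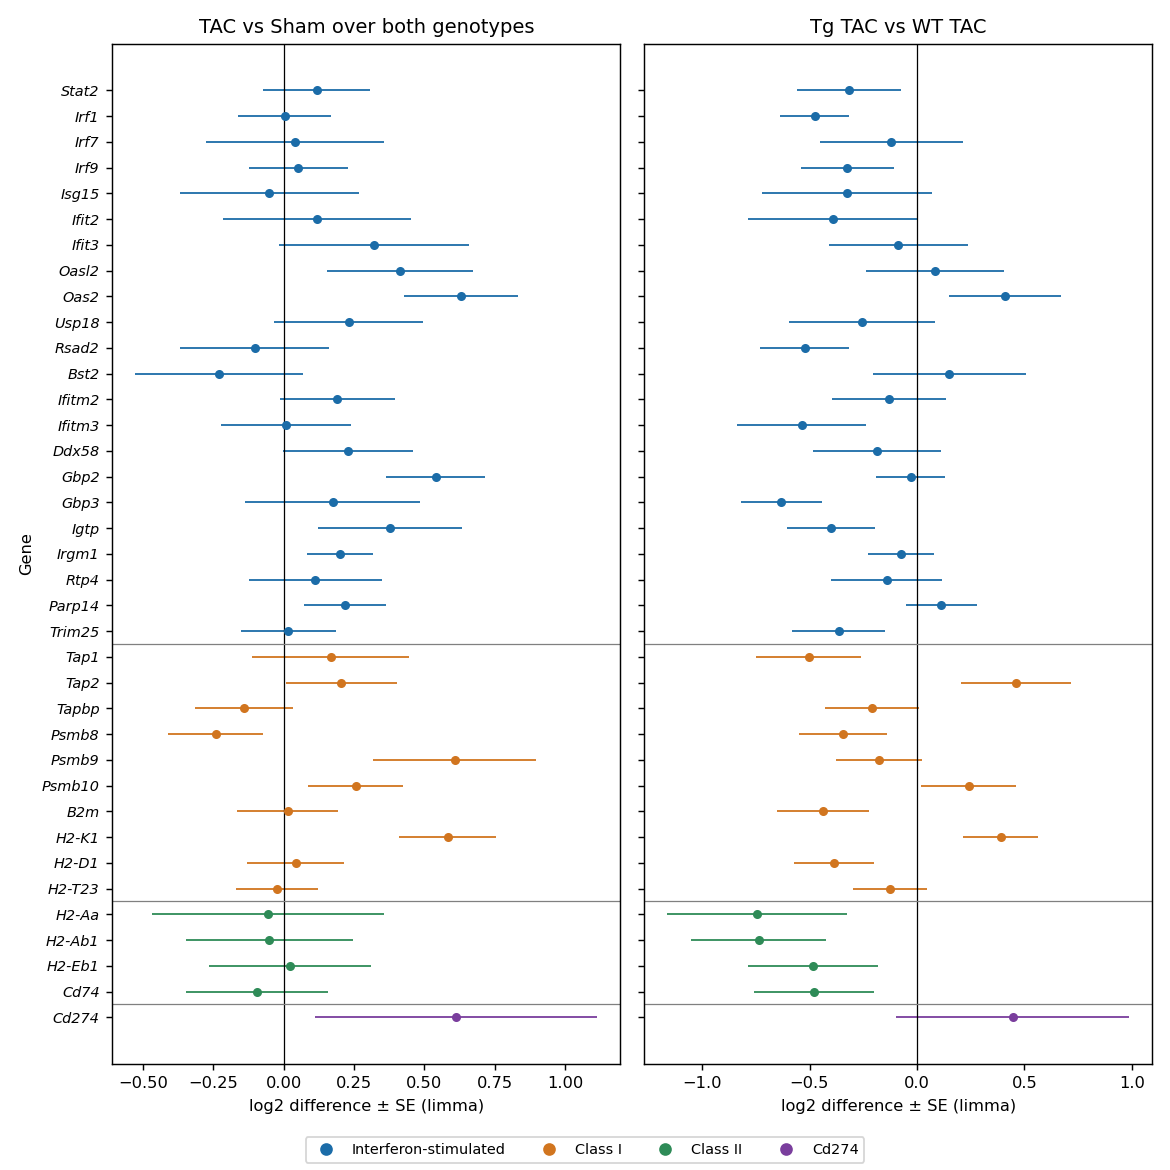
Log2 differences of the 37 genes with their standard errors (bars) from limma, for TAC against Sham over both genotypes (left) and for Tg TAC against WT TAC (right), coloured by list. No gene passed an adjusted p of 0.05 in either comparison. All 4 class II genes lie below 0 on the right.

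Tg TAC was set against WT TAC for the effect of the transgene under load. Most genes of the set read lower in Tg TAC: 18 of 22 interferon-stimulated genes (median -0.22), 7 of 10 class I genes (-0.19) and 4 of 4 class II genes (-0.61), where 48.8% of all genes lay below 0 (median 0.01). None passed in limma (smallest adjusted p 0.67), in which 0% of all genes passed and 7.28% had an unadjusted p below 0.05, as had *Gbp3* and *Irf1* here. Both Tg TAC arrays lay below both WT TAC arrays for 7 interferon-stimulated, 5 class I and 4 class II genes, and for 18.8% of all genes. They lay above for *Oas2*, *Parp14*, *Tap2* and *H2-K1*, and for 20.7% of all genes. The fainter probe of *H2-K1* put both Tg TAC arrays below both WT TAC arrays instead. Marker lists also read lower in Tg TAC, in 8 of 11 endothelial markers (median -0.29) and in 11 of 14 macrophage and leukocyte markers (median -0.11). Without both arrays that go against their label, 6 of 11 endothelial markers (median -0.02) and 2 of 14 macrophage and leukocyte markers (median 0.12) read lower, and their part in the result was not tested.

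Among those without overlap, *Gbp3* differed by -0.63 ± 0.19 (SE), *Rsad2* by -0.52 ± 0.21, *Irf1* by -0.48 ± 0.16 and *Oas2* by 0.41 ± 0.26. In class I, *Tap1* differed by -0.50 ± 0.24 and *Tap2* by 0.46 ± 0.25. Across the class II genes with all arrays, *H2-Aa* (-0.74 ± 0.42), *H2-Ab1* (-0.74 ± 0.31), *H2-Eb1* (-0.48 ± 0.30) and *Cd74* (-0.48 ± 0.28) lay within 3 standard errors of 0. Without WT TAC replicate 1, only 12 of 22 interferon-stimulated genes read lower (median -0.07), and without Tg TAC replicate 2 the median was -0.05. The class II median was -0.11 without WT TAC replicate 2 and -1.03 without WT TAC replicate 1, so these 2 arrays set its size. In the absence of both arrays that go against their label, WT TAC is replicate 2 alone, so no SE is given. The class I median was then -0.18, and *Gbp3* differed by -0.55, *Rsad2* by -0.42, *Irf1* by -0.49, *Oas2* by 0.71, *Tap1* by -0.59 and *Tap2* by 0.22. These single genes were named because their groups did not overlap, so their signs here were fixed beforehand. The class II differences were larger than with all arrays, -1.37 for *H2-Aa*, -1.15 for *H2-Ab1*, -0.91 for *H2-Eb1* and -0.86 for *Cd74*. They are taken from the array in which these genes were highest. The groups of the class II genes did not overlap either, so their signs too were fixed beforehand.

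Within the Tg label, the interferon-stimulated genes went both ways between Tg TAC and Tg Sham. Of the 22 genes 10 lay above 0 (median -0.05, range -0.66 to 0.72), against 51.6% of all genes, and both Tg TAC arrays lay above Tg Sham for 5 of them and below it for 8. Macrophage and leukocyte markers lay above 0 in 12 of 14 cases (median 0.28) and endothelial markers below 0 in 9 of 11 (median -0.29), and their part in these values was not tested. Class I and class II genes read lower in Tg TAC in 7 of 10 (median -0.18) and 4 of 4 genes (median -0.47), against 48.4% of all. The largest differences without overlap were 0.72 ± 0.32 (SE) for *Oas2*, -0.66 ± 0.25 for *Rsad2*, -0.54 ± 0.23 for *Gbp3*, -0.44 ± 0.40 for *Irf7*, -0.41 ± 0.25 for *Psmb8* and -0.37 ± 0.30 for *Tap1*, each with an adjusted p of 1 in limma, where 0% of genes passed. Both Tg TAC arrays lay below Tg Sham for 18 of 37 genes and above it for 7, against 30.2% and 33% of all genes. This comparison turns on the array labelled Tg Sham, whose *Kdm3a* value is at the WT level, and has no value without it. Without Tg TAC replicate 2, 14 of 22 interferon-stimulated genes lay above 0 (median 0.11).

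Whether the TAC difference itself differed between the genotype labels was tested as an interaction, the Tg difference minus the WT difference. It lay below 0 for 20 of 22 interferon-stimulated genes (median -0.40), 10 of 10 class I genes (-0.36), 4 of 4 class II genes (-0.88) and *Cd274*, against 52.8% of all genes (-0.02). The smallest adjusted p was 1 in limma, where 0% of genes passed, and 5 members and 0.919% of all genes had an unadjusted p below 0.05. Those 5 were *Gbp3* (-1.43 ± 0.33), *Psmb9* (-1.28 ± 0.35), *Rsad2* (-1.11 ± 0.36), *Igtp* (-1.06 ± 0.35) and *Tap1* (-1.07 ± 0.42). *Tap1* in WT Sham (5.45) and Tg TAC replicate 2 (5.54) was near the lowest detected values of these arrays (5.30 and 5.41). On every array, TAC lay above sham in WT and below it in Tg for 10 of 37 genes, against 7.64% of all genes. The comparisons above share arrays, so these signs do not add to theirs. Without WT TAC replicate 1, 13 of 22 interferon-stimulated genes lay below 0 (median -0.22).

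The TAC replicates were compared with each other because replicate 1 and replicate 2 came from distant animal numbers in both genotypes. In replicate 2, 17 of 22 interferon-stimulated genes read lower in both WT TAC and Tg TAC, against 31.3% of all genes. The median difference was -0.31, and 18 of 22 lay below 0, against 46.8% of all. Within Tg TAC alone, whose 2 *Kdm3a* values match the label, 20 of 22 read lower (median -0.29), and within WT TAC alone 17 of 22 (median -0.47). Class I genes had a median of -0.08 (-0.16 within Tg TAC alone), and the class II genes and *Cd274* went the other way, with a median of 0.41 and a value of 0.98 ± 0.31 (SE). That class II difference lay in WT TAC (0.84), not in Tg TAC (0.02).

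In this comparison limma called 680 genes, 7.1% of all, of which those lower in replicate 2 were 4.09% of all. Among the 37 genes 4 passed, all interferon-stimulated and all lower: *Ifitm3* fell by 0.60 ± 0.12 (SE, adjusted p = 0.04), *Ifit2* fell by 0.80 ± 0.17 (0.045), *Ifitm2* fell by 0.51 ± 0.11 (0.046) and *Oasl2* fell by 0.63 ± 0.14 (0.049). *Isg15* (-0.74 ± 0.21) and *Bst2* (-0.63 ± 0.21), of similar size, missed the threshold, as did *Tap2* (0.44 ± 0.14) and *B2m* (-0.39 ± 0.10). The fit had 1 residual degree of freedom, and the calls went from 0 members with no filter on detection to 10 with median scaling. *Ifitm2* and *Ifitm3* are near-identical in parts, so their probes may read each other.

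Macrophage markers moved with these genes. Of 14 measured markers 13 read lower in replicate 2 (median -0.51) and 4 passed in limma, *Cd14*, which binds bacterial lipopolysaccharide, by -1.15 ± 0.19 (SE), *Lyz2*, a lysozyme, by -0.68 ± 0.12 and *C1qc*, of the complement C1q complex, by -0.64 ± 0.12 among them. Their summed intensity was 10881 and 9561 in replicate 1 of WT TAC and Tg TAC, and 7155 and 6761 in replicate 2. Endothelial markers read lower in 9 of 11 cases (median -0.28), and cardiomyocyte markers higher in 7 of 8 (median 0.20). Their part in the interferon result was not tested.

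**Figure D4:**
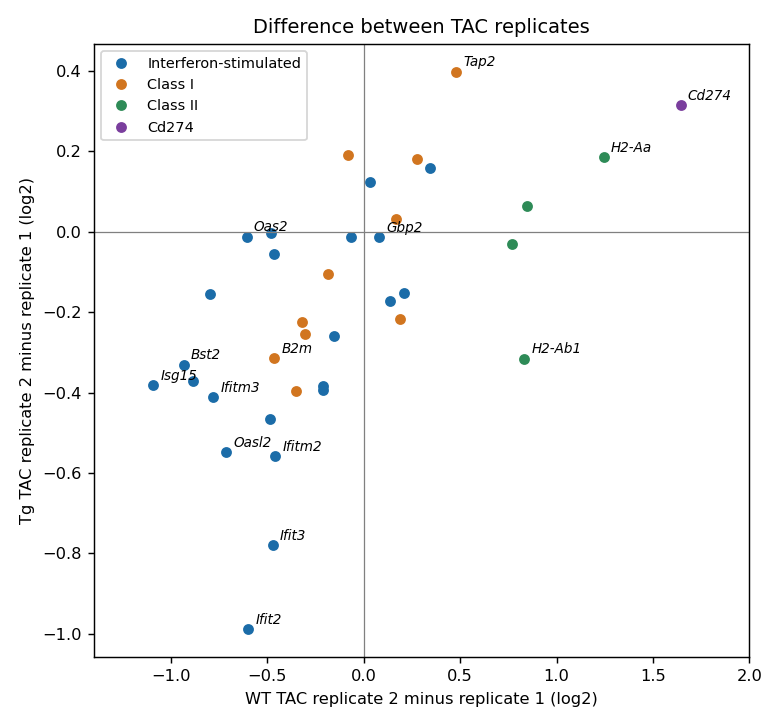
Replicate 2 minus replicate 1 in log2 units for WT TAC (horizontal axis) and Tg TAC (vertical axis), each point 1 of the 37 genes, coloured by list. Of 22 interferon-stimulated genes 17 lie at lower left, and class II genes and *Cd274* lie to the right.

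Upstream of these genes, the interferons *Ifna1*, *Ifna4*, *Ifnb1* and *Ifng* had probes that did not pass the filter, as had the receptor chain *Ifnar1* and the inhibitor *Socs1*. The receptor chains *Ifnar2*, *Ifngr1* and *Ifngr2* were measured, as were *Jak1*, *Jak2* and *Tyk2*. Of 28 genes of interferon sensing and signalling 19 were measured. In WT TAC against WT Sham 10 of them lay above 0 (median 0.01), against 56.6% of all genes. In TAC replicate 2 against replicate 1, *Socs3*, which damps STAT signalling, fell by 0.83 ± 0.17 (SE, limma adjusted p = 0.039). This was 1 of 19 genes, where 7.1% of all genes passed. Of the 19 genes 12 lay below 0, against 46.8% of all.

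Interferon-stimulated genes outside the set were read as a comparison, 26 of 39 measured. They come from the same arrays, so they are no independent check. In WT TAC against WT Sham 24 of 26 lay above 0 (median 0.34), against 56.6% of all genes. *Irgm2* was at 0.79 ± 0.22 (SE), *Cxcl9* at 0.73 ± 0.23 and *Gbp7* at 0.70 ± 0.24. In Tg TAC against WT TAC 18 of 26 lay below 0 (median -0.25), against 48.8% of all genes. None had an adjusted p below 0.05 in limma in either comparison. Leaving out both arrays that go against their label, 16 of 26 lay above 0 in the first (median 0.09), against 56.6% of all genes. In the second, 15 of 26 then lay below 0 (median -0.04), against 49.7%. In TAC replicate 2 against replicate 1, 22 of 26 lay below 0, against 46.8% of all genes. In limma 2 of 26 passed, where 7.1% of all genes passed. *Ifitm1* fell by 0.68 ± 0.11 (adjusted p = 0.022) and *Lgals3bp* fell by 0.65 ± 0.12 (0.03). Over both genotypes *Ifi27* had the smallest p of them (1.04 ± 0.33, adjusted p = 0.82). It read 10.99 in WT Sham, 12.13 and 11.03 in WT TAC, 10.97 in Tg Sham, and 12.40 and 12.54 in Tg TAC. The 3 arrays high for *Ifi27* were those with the high *Kdm3a* probe intensities, an arrangement seen only after its values were read.

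Of 25 further presentation genes 15 were measured. *Nlrc5*, the transactivator of class I genes, read 5.71 in WT Sham, 6.78 and 6.91 in WT TAC, 5.95 in Tg Sham, and 5.70 and 5.67 in Tg TAC. Both WT TAC arrays lay above the other 4, by 1.13 ± 0.27 (SE) over WT Sham and with Tg TAC at -1.16 ± 0.22 against WT TAC, at adjusted p-values of 1 and 0.67 in limma. Leaving out the 2 arrays that go against their label, these differences were 1.20 and -1.23, with 1 WT TAC array left and no SE given. Since both WT TAC arrays lay above the rest, these signs were fixed beforehand. *Calr*, a chaperone of class I loading, read 10.61 in WT Sham, 10.05 and 9.28 in WT TAC, 8.98 in Tg Sham, and 8.29 and 7.91 in Tg TAC. It differed by -1.57 ± 0.31 (SE) in Tg TAC against WT TAC (limma adjusted p = 0.67), by -1.63 in Tg Sham against WT Sham, with no replicate check, and by -0.94 ± 0.38 in WT TAC against WT Sham (adjusted p = 1). The difference between the genotype labels was thus of similar size in the sham arrays, of which Tg Sham goes against its label. Without both arrays that go against their label, Tg TAC differed from WT TAC by -1.19. Both Tg TAC arrays lay below both WT TAC arrays, so this sign too was fixed beforehand. *Calr* also fell at each step in the order of the deposited columns, replicates included. Genotype label and that order cannot be told apart for it. The proteasome activator *Psme1* was the only 1 of 15 to pass between the TAC replicates, where 7.1% of all genes passed. It was higher in replicate 2 by 0.50 ± 0.11 (SE, limma adjusted p = 0.043).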

How the data were processed

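Left ventricle RNA of 6 mice was run on Illumina bead arrays as biotinylated cRNA, 1 array per mouse. The authors deposited linear intensity per probe without normalization, with a detection p-value beside each, and GenomeStudio 2011.1 is named in the submitters' processing notes. They also deposited a quantile-normalized intensity table, used here only as an alternative. The platform annotation gave 1 symbol to 34885 of 45281 probes, several to 18 and none to 10378, and 0 symbols changed when checked against RefSeq.

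The limma package (3.58.1, R 4.3.3) was used. Its normexp correction took the control level from the detection p-values, with an offset of 16, and the log2 values were then quantile normalized. Kept were 17014 probes of 9577 genes, those under a detection p of 0.01 on 2 arrays or more, and the probe with the highest mean stood for a gene. Group means over all 6 arrays left 2 residual degrees of freedom, the additive model of genotype and surgery 3, and the model with animal number series 1, in eBayes with an intensity trend. Each sham array was assumed to vary like the TAC arrays. P-values were two-sided and adjusted by Benjamini-Hochberg over all genes, with a threshold of 0.05. The number of arrays limits the precision.

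Genes were named by rule. Levels on every array were given for the 10 interferon-stimulated, 5 class I and 4 class II genes with the widest range and for *Cd274*. Per comparison, the 4 interferon-stimulated and 2 class I genes with the largest differences without overlap were named, any that passed, and up to 4 genes of the other pathway lists by p. The genes and lists were chosen with earlier results of these data known. Alternatives were other scaling, the authors' table, another offset, other detection filters, other probe rules, a replicate block, the methods' t-test and leaving out arrays. Leaving out both arrays that go against the *Kdm3a* probe for the marker lists, the other pathway lists and single genes was added after the data were seen. Sequences of promoters are from RefSeq (GRCm38.p6).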

Additional observations from a re-analysis of the deposited data

Results flagged for a closer look

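For 10 of the 37 genes both WT TAC arrays lay above WT Sham while both Tg TAC arrays lay below Tg Sham, against 7.64% of all genes. The difference of the responses, Tg minus WT in log2 units, was -1.43 for *Gbp3*, -1.11 for *Rsad2*, -1.07 for *Tap1*, -1.06 for *Igtp*, -0.96 for *Irf7*, -0.88 for *H2-Eb1*, -0.65 for *Rtp4*, -0.60 for *Irf1*, -0.53 for *H2-D1* and -0.35 for *H2-T23*. Each adjusted p of this interaction was 1 in limma, so none of these differences passed. The opposite arrangement was seen in 0 of the 37 genes and in 4.81% of all genes. *Rtp4* was not detected in WT Sham or in Tg TAC replicate 2, so its value rests on levels near background. *Tap1* was detected on these 2 arrays, but at 5.45 and 5.54, near their lowest detected values (5.30 and 5.41). Other kept probes of 3 of the genes broke the arrangement: for *Irf1* both WT TAC arrays lay below WT Sham on a probe at 6.98 and 6.93 against 7.23 and on another at 7.13 and 7.04 against 7.15, for *H2-D1* Tg TAC replicate 1 lay above Tg Sham on a probe at 11.06 against 10.96 and on another at 7.66 against 7.64, and for *H2-T23* it did so on a probe at 8.51 against 8.32. Each response rests on a single sham array, and the arrays labelled WT TAC replicate 1 and Tg Sham, which go against their label on the *Kdm3a* probe, enter all 10.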

How the results depend on the processing

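The list medians carry no test, and those near 0 changed sign under some settings. With arrays scaled to a common median the median of all genes moved to -0.12 for Tg TAC against WT TAC, -0.20 for Tg Sham against WT Sham and -0.17 for TAC replicate 2 against 1. The class I median was then 0.23 for WT TAC against WT Sham, -0.32 for Tg TAC against WT TAC, 0.018 for Tg Sham against WT Sham, -0.28 for replicate 2 against 1 and -0.25 for the interaction, and the interferon-stimulated median was -0.066 for Tg Sham against WT Sham and -0.54 for replicate 2 against 1, with 10 members called. In the authors' table the class I median was -0.13 for Tg TAC against WT TAC and 0.21 for Tg Sham against WT Sham. Between the TAC replicates an offset of 50 left 1 member called, no detection filter left 433 genes and 0 members, the mean of a gene's probes left 403 genes and 0 members with a class I median of -0.015 (0.36 for Tg Sham against WT Sham), and every probe on its own gave 1263 called. The cause of these shifts was not tested. The replicate numbers gave only 2 pairs (r = 0.54 over 9577 genes between the replicate differences of WT TAC and Tg TAC). A replicate block called 7 genes for Tg TAC against WT TAC, 57 for Tg TAC against Tg Sham and 93 for TAC against Sham, 0 of them members, changed no other count of calls, and gave class I medians of 0.42 for WT TAC against WT Sham, -0.12 for Tg TAC against Tg Sham and 0.18 for TAC against Sham. Without both arrays that go against the *Kdm3a* probe, the class I median was 0.14 for WT TAC against WT Sham and -0.16 for replicate 2 against 1. The class II median for TAC against Sham, then taken from WT arrays alone, was 0.85. The methods' t-test gave 699 genes (7.3%) and 2 members at an unadjusted p of 0.05 for Tg TAC against WT TAC, and 0 after Benjamini-Hochberg.

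Other list medians that moved by over 1.5 times stayed within the spread between replicates. With median scaling the interferon-stimulated median was -0.35 for Tg TAC against WT TAC, -0.26 for the interaction and 0.004 for Tg TAC against Tg Sham, and the class II median was 0.036 for Tg Sham against WT Sham and 0.23 for replicate 2 against 1. Without a detection filter the interferon-stimulated median for Tg TAC against WT TAC was -0.14. With the replicate block the interferon-stimulated median was 0.28 for TAC against Sham and 0.10 for Tg TAC against Tg Sham, and the class II median was 0.24 for WT TAC against WT Sham and -0.24 for TAC against Sham. Every probe on its own gave a class II median of 0.27 for replicate 2 against 1 and a class I median of 0.04 for TAC against Sham, which was 0.05 in the authors' table. The other such medians lay between -0.12 and -0.02.

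Leaving out 1 array at a time, list medians were as follows. For WT TAC against WT Sham the interferon-stimulated, class I and class II medians ran from 0.20 to 0.53, 0.14 to 0.45 and -0.02 to 0.85, with 0 to 1 genes called. For Tg TAC against WT TAC they ran from -0.43 to -0.05, -0.24 to -0.14 and -1.03 to -0.11, with 0 to 2 genes called. For Tg TAC against Tg Sham they ran from -0.13 to 0.11, -0.20 to -0.12 and -0.54 to -0.44, with 0 to 1 genes called. For TAC against Sham they ran from -0.05 to 0.37, -0.18 to 0.30 and -0.46 to 0.43, with 0 to 4 genes called. For replicate 2 against 1 they ran from -0.47 to -0.29, -0.16 to -0.13 and 0.02 to 0.84, with 1 pair left and no test. For the interaction they ran from -0.56 to -0.20, -0.49 to -0.31 and -1.303 to -0.46, with 0 to 1 genes called. No member was called where a test could be run.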
